A study of Mus musculus with 2 samples.

Results

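The D cyclins, the kinases CDK4 and CDK6, 4 CDK inhibitors and the retinoblastoma protein gene Rb1 were followed in mouse bone marrow cultures with and without RANKL. These 10 genes (Ccnd1, Ccnd2, Ccnd3, Cdk4, Cdk6, Cdkn1a, Cdkn1b, Cdkn2c, Cdkn2d and Rb1) were taken by name, from 14791 genes that had a value in the data. Total RNA was sequenced from wild-type bone marrow cells in α-minimum essential medium with serum. Both cultures received M-CSF (20 ng/mL), the growth factor of the macrophage lineage. One culture had M-CSF alone (M), and the other had M-CSF for 2 days followed by M-CSF with RANKL (100 ng/mL), the cytokine that induces osteoclasts (MR). The labels give 2 days with RANKL, whereas the culture method gives a longer period. For M, 2 days with M-CSF and 0 with RANKL are recorded. Whether M was harvested together with MR is not given in the sources used here. If M was harvested earlier, RANKL and time in culture cannot be told apart. The strain, age and sex of the donor mice of these cultures are likewise not given. Each culture is 1 library, so that every difference below lacks a replicate check. The intervals cover the counting of reads alone.

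D cyclins bind and activate CDK4 and CDK6 when a growth factor such as M-CSF acts on a cell in G1. The active kinases phosphorylate the retinoblastoma protein, which then releases E2F transcription factors, and these switch on genes for DNA replication. The INK4 inhibitors, to which p18 (Cdkn2c) and p19 (Cdkn2d) belong, bind CDK4 and CDK6 themselves, whereas the CIP/KIP inhibitors p21 (Cdkn1a) and p27 (Cdkn1b) bind cyclin-CDK complexes. Osteoclast precursors proliferate in M-CSF and leave the cell cycle as they mature and fuse.

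The level of a gene is its TPM, its share of all transcripts after division by transcript length, which can be compared between genes. Sequencing depth, estimated from the deposited values, was 3.63 aligned Gb for M and 2.98 Gb for MR. The estimate for M is above the approximate raw yield that the paper gives per sample. The log2 ratio compares MR with M, with 1 added to both TPM values. Its median was 0.21 over the 13457 separately assembled genes that reached a TPM of 1 in either library. Rescaling TPM by the median ratio of the genes lowered that median to 0.04, which follows largely from how this scaling is made. The mitochondrial genes held a TPM of 13885 (M) and 54522 (MR). The cultures carried the markers of their labels, as the TPM of the 6 osteoclast genes examined summed to 105 in M against 18712 in MR, and that of the 5 macrophage genes to 4204 against 3338. Of the latter, the M-CSF receptor gene Csf1r was higher in MR (697 and 872), and Adgre1 (681 and 148), Mrc1 (47.9 and 11.8), Cd68 (2607 and 2171) and Itgam (171 and 135) were lower. Of the other cell types, 7 neutrophil genes summed to 1362 in M and 950 in MR, and the erythroid, lymphoid, stromal, mast cell and dendritic lists each summed to at most 22.1, with Klf1, Cd3e, Ms4a2 and Cd209a at 0 in both. The part of other cells in the results below was not tested. In bulk RNA, fewer cells of a type and less RNA per cell cannot be told apart.

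Each of the 10 genes was assembled separately in both libraries. Of the 10, 3 had a log2 ratio below -1, namely Ccnd1, Ccnd2 and Cdkn1a, against 13.2% of all genes. One, Cdkn1b, had a log2 ratio above 1, against 21.3% of all genes. The other 6 lay between these limits, and the median of the 10 genes was -0.71. As shares, 30% of these genes were past the limit on the lower side and 10% on the higher side.

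**Figure D1:**
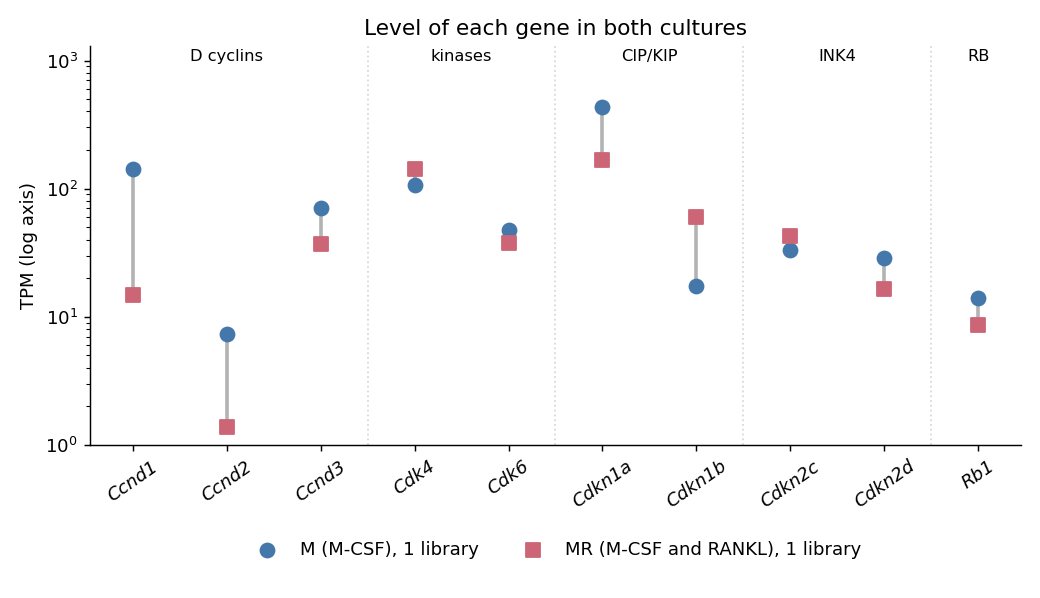
TPM of each gene (log axis) in the M library (circles) and the MR library (squares), 1 library each, grouped into D cyclins, kinases, CIP/KIP inhibitors, INK4 inhibitors and Rb1. The grey line joins both values of a gene, and the longest line belongs to Ccnd1, from 142 in M to 14.9 in MR.

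Cyclin D1 (Ccnd1), the D cyclin best known as a target of growth factor signalling, had the lowest ratio of the 10 genes. Its TPM was 142 in M (95% counting interval 137 to 147) and 14.9 in MR (13.1 to 16.9). The level in M was thus 9.56 times that in MR (8.40 to 10.9), and the log2 ratio was -3.17. Of the 13457 genes, only 132 had a lower log2 ratio. Ccnd1 occupies chromosome 7 from 144929931 to 144939925 (GRCm38, minus strand), and its neighbour LTO1 runs towards it from the plus strand. In M, the Ccnd1 locus ended 1263 bases short of the annotated 3′ end, and the LTO1 locus covered 635 exon bases of Ccnd1. In MR, the Ccnd1 locus passed the annotated 3′ end by 534 bases, and the LTO1 locus covered none of its exons. The TPM of LTO1 was 75.5 in M and 16.2 in MR. The part of this overlap in both values was not tested.

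Cyclin D2 (Ccnd2) was the least abundant of the 10 genes in both cultures. Its TPM was 7.37 in M (6.51 to 8.32) and 1.37 in MR (0.970 to 1.88), with a log2 ratio of -1.82. In M a single locus spanned 26557 bases and 99.2% of the exon bases of the gene on chromosome 6. In MR there was no such locus. Only 2 fragments were assembled, one at the 3′ end of the gene with 29.9% of its exon bases and one near the 5′ end with 21.2%, at a read depth per base of 0.816 and 1.00. The value in MR is the sum of both fragments, each scaled to its own length, so that it may overstate the level of a single transcript. The 38 read pairs estimated for it, against 261 in M, assume a transcript of 6330 nt. The fragments cover only part of that length, so that the true number is lower and the interval in MR is too narrow. With the longer fragment alone the log2 ratio was -2.37, and with read depth per aligned Gb it was -1.28.

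The TPM of cyclin D3 (Ccnd3) was 70.2 in M (65.4 to 75.3) and 36.9 in MR (33.0 to 41.2). Its log2 ratio of -0.91 lay at -1.11 relative to the median of all genes but did not reach the limit of -1. After median-of-ratios scaling it was -1.09, and with mitochondrial and the 20 most abundant genes left out it was -1.02, so that the side of the limit depends on the scaling. All 3 D cyclin genes were lower in MR under every alternative run for them.

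Summed over the 3 D cyclins, TPM was 219.8 in M and 53.2 in MR. The sum in M was thus 4.13 times that in MR. Their makeup also differed between the libraries. Ccnd1 made up 64.7% of D cyclin TPM in M and 27.97% in MR, whereas Ccnd3 made up 31.9% and 69.5%. The TPM of Ccnd1 was thus 2.03 times that of Ccnd3 in M and 0.403 times that of Ccnd3 in MR. Ccnd2 contributed 3.35% and 2.58%.

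**Figure D2:**
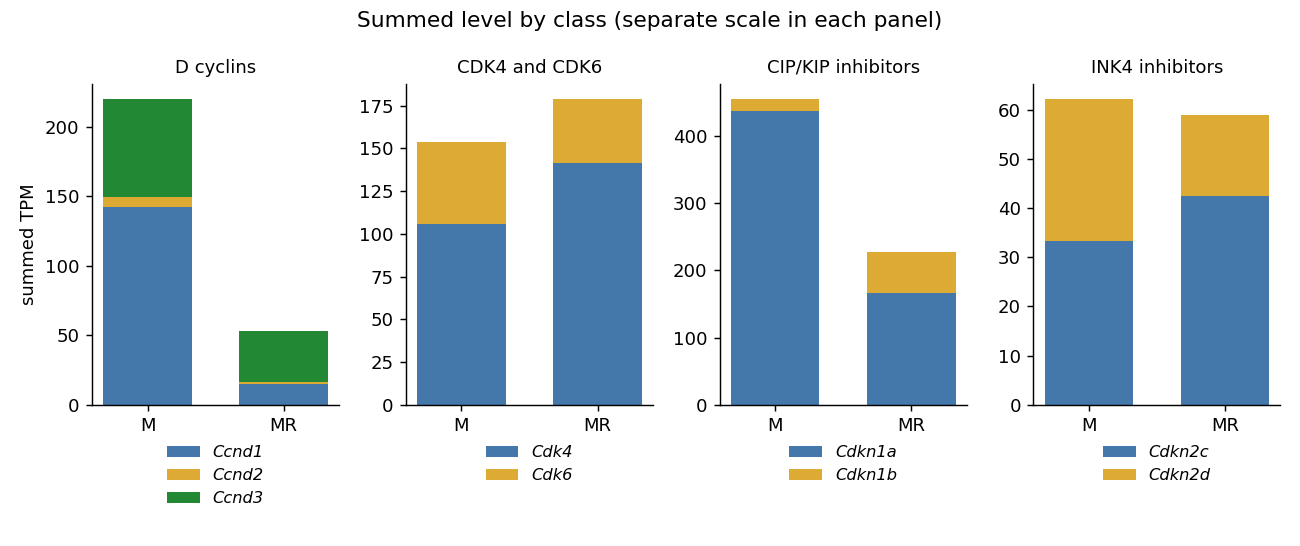
Summed TPM (linear axis from 0, a separate scale in each panel) of the D cyclins, CDK4 and CDK6, the CIP/KIP inhibitors and the INK4 inhibitors in M and MR, 1 library each, with the part of each gene in its own colour. The D cyclin column is 219.8 in M and 53.2 in MR, and the INK4 columns are 62.2 and 59.0.

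The Ccnd3 locus began far inside the gene in both cultures. GENCODE vM21 places the gene on the plus strand of chromosome 17 from 47505051 to 47599691. The locus started 88439 bases downstream of this annotated start in M and 88430 bases in MR, 20 and 11 bases inside the start of an annotated transcript of 1977 nt. RefSeq also gives a start site there, at 47593467, and the assembled 5′ ends lay 23 and 14 bases after it. No locus of Ccnd3 was assembled at the upstream start in either library, although reads too few to be assembled would not appear. The window below, from 250 bases before this downstream start to 30 bases after it (chr17:47593217-47593496, plus strand, GRCm38.p6, RefSeq), is shown because both assembled 5′ ends fall in it. Capitals mark a CCAAT box (CCAAT, at -108 to -104) and 2 GC boxes (GGGCGG on either strand, at -46 to -41 and 12 to 17), which are the motifs found among those searched.
Ccnd3 downstream start: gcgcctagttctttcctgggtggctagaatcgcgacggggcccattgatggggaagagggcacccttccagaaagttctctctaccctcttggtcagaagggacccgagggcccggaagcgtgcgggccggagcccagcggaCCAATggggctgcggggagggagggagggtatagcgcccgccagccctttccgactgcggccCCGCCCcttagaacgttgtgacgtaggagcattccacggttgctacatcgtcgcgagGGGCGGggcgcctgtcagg

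The partner kinases were at similar or slightly different levels in both cultures. The TPM of Cdk4 was 105.8 in M (99.95 to 112) and 141 in MR (134 to 149). Its log2 ratio of 0.41 was 0.21 above the median of all genes. It was higher in MR under every alternative, with 0.23 as its lowest log2 ratio. The Cdk4 locus stopped 676 bases short of the annotated 3′ end in M and 878 bases short in MR. Tspan31 runs towards it from the other strand, at 123.7 TPM in M and 92.6 in MR. The Tspan31 locus covered 69 exon bases of Cdk4 in M and 75 in MR.

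Summed over its loci, the TPM of Cdk6 was 47.7 in M (44.1 to 51.5) and 37.7 in MR (34.2 to 41.5), with a log2 ratio of -0.33. Its direction rests on 1 locus. In M, a locus over the whole gene on chromosome 5 had a TPM of 27.7, and a further locus of 6928 bases, without a strand and inside the last part of the gene, had 19.96. In MR the whole gene was 1 locus. Without the locus that has no strand, Cdk6 was higher in MR, with a log2 ratio of 0.43. The direction of Cdk6 is thus not settled by these tables. Both M loci are scaled to their own length and one lies within the span of the other, so that their sum may overstate Cdk6 in M. The interval does not cover this. With both loci included, the sum of Cdk4 and Cdk6 was 153.5 in M and 178.9 in MR. The D cyclins amounted to 1.43 times this sum in M and 0.297 times in MR.

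The window before the Cdk4 start (chr10:127063285-127063564, plus strand, GRCm38.p6, RefSeq) is shown for its number of E-boxes. Capitals mark 4 E-boxes (CACGTG), at -172 to -167, -118 to -113, -98 to -93 and -11 to -6, and 3 GC boxes, of which the last 2 share 1 base. An E-box occurred in 6.79% of the 32851 RefSeq windows of this length, and 8 of them, Cdk4 included, held at least 4. Of the 10 windows found for the genes studied here, those of Cdk4 and Cdk6 held an E-box. The matches describe the sequence and do not show that it was bound. The part of any factor in the values of Cdk4 was not tested.
Cdk4: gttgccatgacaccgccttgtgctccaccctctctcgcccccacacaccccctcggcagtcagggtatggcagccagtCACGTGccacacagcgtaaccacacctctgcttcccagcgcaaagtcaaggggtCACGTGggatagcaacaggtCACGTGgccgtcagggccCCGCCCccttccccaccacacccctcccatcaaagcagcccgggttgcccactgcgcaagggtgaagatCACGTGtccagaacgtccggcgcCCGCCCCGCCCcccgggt

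The inhibitors p21 and p27 differed in opposite directions. Cdkn1a, which encodes p21 and is a classic target of p53, was the most abundant of the 10 genes in both cultures. Its TPM was 437 in M (420 to 456) and 167 in MR (155 to 180), a level 2.62 times higher in M (2.41 to 2.86) with a log2 ratio of -1.39. Cdkn1b, which encodes p27, had a TPM of 17.5 in M (15.0 to 20.3) and 59.7 in MR (54.4 to 65.4). The level in MR was 3.41 times that in M (2.86 to 4.06), and the log2 ratio of 1.71 was higher than that of 90.6% of all genes. Both kept their direction and stayed past the limit of 1 under each alternative, with log2 ratios from -1.57 to -1.39 for Cdkn1a and from 1.54 to 1.76 for Cdkn1b. The TPM of Cdkn1a was 24.98 times that of Cdkn1b in M and 2.79 times in MR. Cdkn1b thus made up 3.85% of the TPM of both genes in M and 26.4% in MR, while their sum was 455 in M and 227 in MR.

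**Figure D3:**
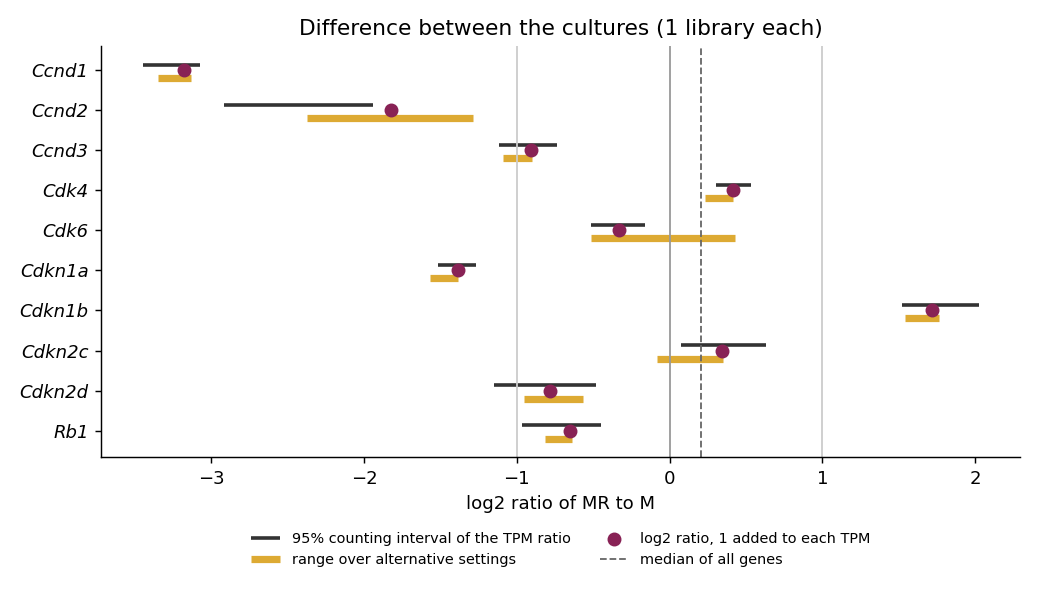
Log2 ratio of MR to M for each gene (points, with 1 added to each TPM), the 95% counting interval of the TPM ratio with nothing added (dark lines) and the range over the alternative settings (yellow lines), 1 library per condition. Solid vertical lines mark 0 and the limits of -1 and 1, the dashed line is the median of all genes, and the yellow line crosses 0 for Cdk6 and Cdkn2c only. The point of Ccnd2 lies outside its counting interval because 1 was added to its low TPM in MR.

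Both genes were assembled from their annotated starts. The Cdkn1a locus on chromosome 17 extended to 27 bases before the upstream RefSeq start site, at 29090979, in M and 171 bases before it in MR. It therefore also spans the second RefSeq start, which lies 2817 and 2961 bases downstream of its 5′ end, and the tables do not separate transcripts from these starts. The Cdkn1b locus on chromosome 6 began 21 bases after the start site in M and 18 bases after it in MR, and ended 985 bases short of the annotated 3′ end in both. The windows of these genes, from 250 bases before to 30 bases after the start, are shown because the genes differed in opposite directions (Cdkn1a chr17:29090729-29091008 and Cdkn1b chr6:134920151-134920430, plus strand, GRCm38.p6, RefSeq). In Cdkn1a capitals mark a p53-like match, 2 CATG cores with 6 bases between them, at -48 to -35. This pattern was looked for after the sequence had been read, and 0.691% of all windows held it. The window of the second Cdkn1a start, not shown, held 2 GC boxes and no p53-like match. In Cdkn1b capitals mark 2 CCAAT boxes, at -161 to -157 and -35 to -31, and a GC box at -61 to -56. CCAAT boxes occurred in 36.1% of all windows and GC boxes in 34.7%.
Cdkn1a upstream start: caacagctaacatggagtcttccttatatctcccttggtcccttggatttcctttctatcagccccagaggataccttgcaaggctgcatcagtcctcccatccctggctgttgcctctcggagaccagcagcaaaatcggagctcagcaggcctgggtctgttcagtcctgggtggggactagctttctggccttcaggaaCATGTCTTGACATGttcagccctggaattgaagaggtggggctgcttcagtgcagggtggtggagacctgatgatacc
Cdkn1b: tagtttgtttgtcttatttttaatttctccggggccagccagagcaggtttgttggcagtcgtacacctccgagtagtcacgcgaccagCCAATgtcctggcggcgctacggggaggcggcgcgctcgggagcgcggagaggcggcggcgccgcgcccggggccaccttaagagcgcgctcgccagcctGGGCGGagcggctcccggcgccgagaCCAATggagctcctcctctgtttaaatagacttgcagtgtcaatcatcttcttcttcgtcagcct

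The INK4 inhibitors differed less. The TPM of Cdkn2c (p18) was 33.3 in M (28.9 to 38.2) and 42.5 in MR (36.9 to 48.7), with a log2 ratio of 0.34 and, with read depth per aligned Gb in place of TPM, -0.08. The TPM of Cdkn2d (p19) was 28.9 in M (25.3 to 32.9) and 16.4 in MR (13.4 to 19.9), with a log2 ratio of -0.78 that stayed negative under each alternative. Their counting intervals overlapped in M and not in MR, where the TPM of Cdkn2d was 0.386 times that of Cdkn2c. The sum of both was 62.2 in M and 59.0 in MR. The 4 inhibitors together had 2.35 times the TPM of the D cyclins in M and 5.37 times in MR.

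Rb1, the substrate of the D cyclin kinases, reached a TPM of 14.1 in M (12.7 to 15.6) and 8.63 in MR (7.40 to 9.99), and a log2 ratio of -0.65. The ratio stayed between -0.82 and -0.64 under the alternatives. The locus on the minus strand of chromosome 14 held 93.6% of the exon bases of the gene in both libraries, and its 3′ end was 10075 bases short of the annotated end in M and 11609 bases in MR. Lpar6, which lies within Rb1, was a separate locus without a strand, at a TPM of 36.0 in M against 11.9 in MR. The neighbouring Rcbtb2 locus covered 377 exon bases of Rb1 in M and none in MR, at a TPM of 64.1 and 29.5.

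**Figure D4:**
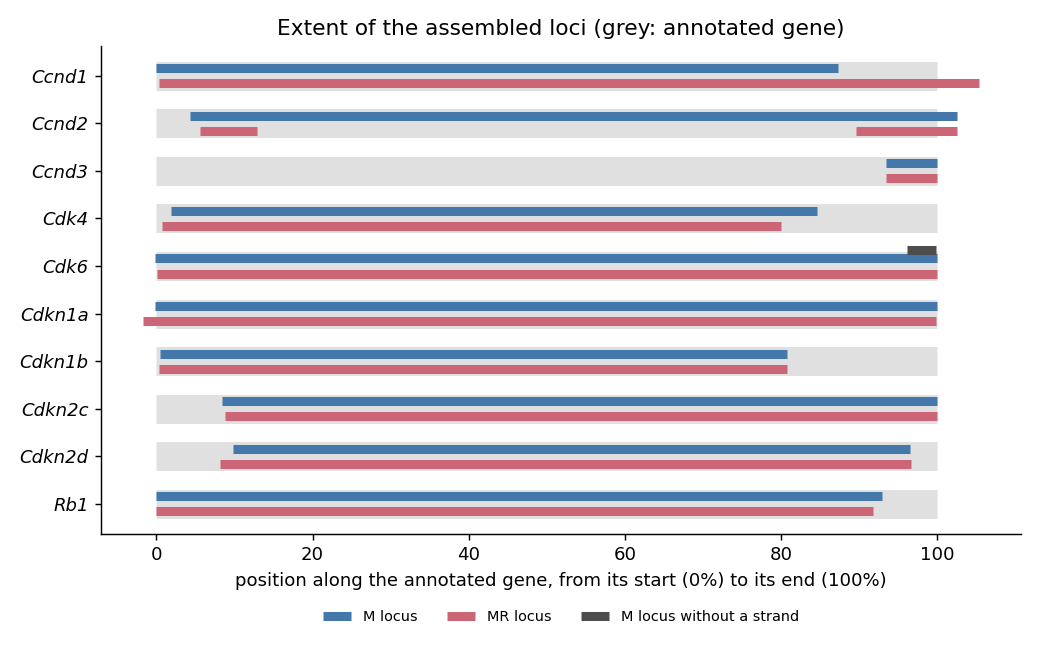
Extent of the loci assembled in M (blue) and MR (red) along each annotated gene (grey), as a percentage of the gene's length from its annotated start (0%) to its end (100%), 1 library each. The dark bar is the M locus of Cdk6 without a strand, Ccnd2 is in 2 fragments in MR, and both Ccnd3 loci begin 88439 and 88430 bases inside the gene.

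The order of the 10 levels differed between the cultures. In M, Cdkn1a was followed by Ccnd1, Cdk4, Ccnd3, Cdk6, Cdkn2c, Cdkn2d, Cdkn1b, Rb1 and Ccnd2. The place of Cdk6 in M rests on the sum of its loci. Its locus over the whole gene alone, at a TPM of 27.7, would lie below Cdkn2c (33.3) and Cdkn2d (28.9). Of the neighbours in this order, the counting intervals overlapped for Cdkn2c and Cdkn2d and for Cdkn1b and Rb1. In MR, Cdkn1a was followed by Cdk4, Cdkn1b, Cdkn2c, Cdk6, Ccnd3, Cdkn2d, Ccnd1, Rb1 and Ccnd2. Here they overlapped for Cdkn2c and Cdk6, for Cdk6 and Ccnd3, and for Cdkn2d and Ccnd1. Ccnd1 thus held the second place in M and the eighth in MR, and Cdkn1b the eighth and the third.

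The rest of the pathway was read from a list of 41 other cyclin, CDK and RB-E2F genes, all with a TPM of at least 1 in either library. Of these, 4 had a log2 ratio above 1 and 4 below -1, which is 9.76% in each direction against 21.3% and 13.2% of all genes, and the median was -0.16. Myc, a transcription factor that drives growth, was at a TPM of 3.92 in M and of 40.1 in MR (log2 ratio 3.06). The INK4 gene Cdkn2b (p15) had 2.84 and 12.8, the phosphatase gene Cdc25a had 6.71 and 14.5, and E2f5 had no locus in M and a TPM of 6.46 in MR. Cdc25a, at a log2 ratio of 1.01, was just past the limit.

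On the lower side were the activator E2f2 (TPM 14.8 in M and 4.37 in MR), the repressor E2f8 with TPM 14.9 and 4.82, and the Rb relative Rbl1 (p107) with 16.6 and 7.41. The fourth was Mybl2, with 25.2 and 3.11, whose locus is shared with another gene. E2f1 had 32.6 in M against 17.4 in MR (log2 ratio -0.86). The other Rb relative, Rbl2 (p130), had 19.2 and 19.0, and Cdk2 had 27.1 and 29.9. Cyclin E genes differed little, with 11.6 and 7.94 for Ccne1 and 10.3 and 13.6 for Ccne2. Cdkn2a had 1.45 and 1.40 and Cdkn1c 5.75 and 3.77, so that both remained under the other inhibitors of their families. Skp2, which targets p27 for degradation, had 17.2 in M and 8.74 in MR, with a log2 ratio of -0.90.

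All 20 genes of a list of known E2F targets were lower in MR, also under each alternative. Of these, 8 had a log2 ratio below -1, which is 40% against 13.2% of all genes, and the median was -0.86. By direction alone, 5456 of all 13457 genes were lower in MR. The list holds only some E2F targets and was chosen with earlier results of these data known. Of the 41 pathway genes above, 25 were lower in MR and 16 higher, with Cdc25a and Ccne2 among the higher. Pcna, the sliding clamp of DNA replication, was at 518 TPM in M and 121 in MR. The licensing gene Cdc6 had 12.1 and 2.32, Gins1 had 22.1 and 5.99, and thymidine kinase (Tk1) had 43.8 and 15.9. In contrast, Pola1 had 10.8 and 10.6, and Cdt1 had 44.8 and 41.9.

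Of 20 p53 target genes, Trp53 itself included, 6 had a log2 ratio below -1 and 3 above 1, with a median of -0.49. These are 30% and 15% of the list, against 13.2% and 21.3% of all genes. The count below -1 was 4 with FPKM and 3 with read depth per aligned Gb, and the count above 1 was 3 in both. Of all 13457 genes, 1352 and 1361 were below -1 with these settings, and 2057 and 2109 above 1. Genes on the lower side included Plk2 (TPM 178.7 in M and 36.9 in MR), Gdf15 with 29.3 and 3.38, and Sesn1 with 61.9 and 26.9. On the higher side were Perp, with no locus in M and a TPM of 12.4 in MR, Pmaip1 (Noxa) with 13.8 and 43.9, and Trp53inp1 with 20.5 and 47.1. Trp53 had 51.9 in M and 83.1 in MR, and Mdm2 had 147 and 111. By direction alone, 15 of the 20 genes were lower in MR, against 5456 of all 13457 genes. The 15 became 13 with read depth per aligned Gb and 16 after median-of-ratios scaling. Cdkn1a, which is not in this list, was also lower in MR, and a part of p53 in its values was not tested.

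**Figure D5:**
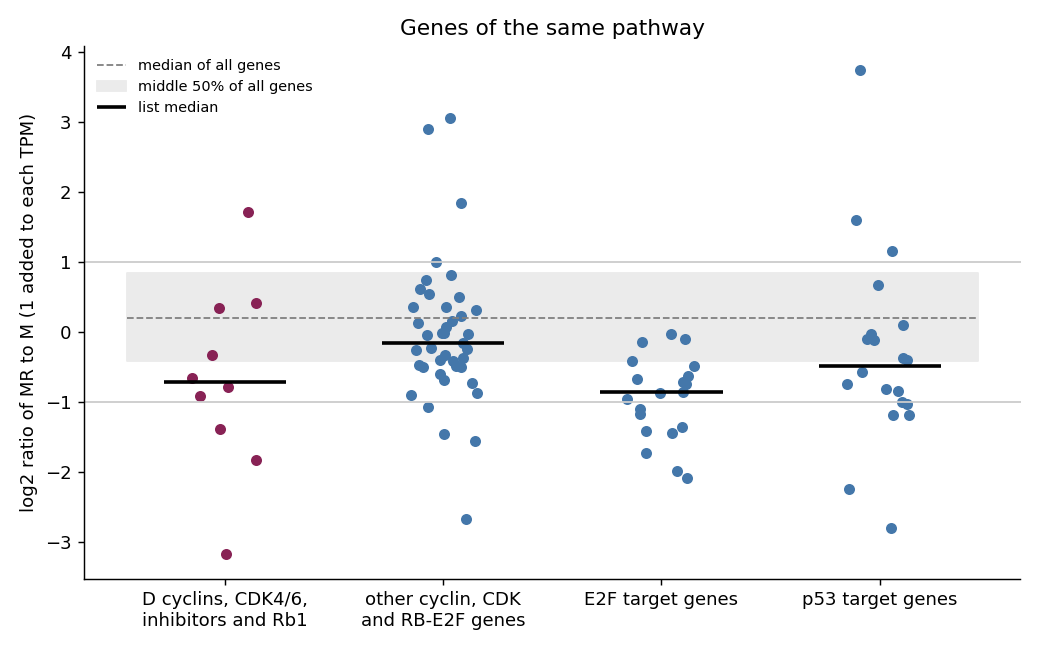
Log2 ratio of MR to M (1 added to each TPM) for the 10 genes and for the 3 lists of related genes, 1 point per gene, with the list median as a black line, the median of all genes dashed and the middle 50% of all genes shaded. All 20 listed E2F targets lie below 0, with a median of -0.86, while the other lists hold genes on both sides.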

How the data were processed

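RNA was measured in 2 libraries, 1 per condition, as paired reads of 150 bases. The authors trimmed adaptors with Trim Galore, mapped to mm10 with HISAT2 and ran StringTie with GENCODE vM27 as reference; versions are not given in the sources used here. The deposited tables give coverage (read depth per base, a signal not scaled to library size), FPKM and TPM as the authors' values. The vM27 positions are on another build than the reads, so that entries with gene names were not used. Each assembled locus was given to the GENCODE vM21 (GRCm38) gene with most exon bases in it, on its strand (either strand for a locus with none), if these were 50 or more. Loci covering at least 50% of another coding gene were shared, and genes inside such a locus that had none of their own received no value. TPM was summed per gene, and 14430 genes had a locus of their own.

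With 1 library per group no test was run. Counting intervals (95%, Poisson for levels and Wilson for ratios) used read pairs estimated from FPKM, the aligned Gb (read from the modal coverage-to-FPKM ratio) and the shortest CCDS transcript. Reads are not independent molecules, so that the intervals cover counting error alone. Whether the library marked strand is not given in the sources used here. Genes and lists were chosen with earlier results of these data known. Named genes are the 10 genes, list genes past the limit, and a fixed set of regulators (Cdkn1c, Cdkn2a, Rbl2, Ccne1, Ccne2, Cdk2, E2f1, Skp2, Trp53 and Myc among them). Mdm2, Pola1 and Cdt1 were named after their values were seen, as were the Cdk4 E-boxes and the Cdkn1a match. The assignment was run on simulated data with 1 locus per gene, on its strand and over most of its length. Loci in fragments, without a strand or much shorter than the gene were not simulated. Promoter windows came from RefSeq for 7 of the 10 genes (not Ccnd1, Ccnd2 and Rb1). Motifs, searched on both strands, were the CCAAT box, the GC box, the E-box and the p53-like pattern, as spelled in the results. An E2F-like site was read as TTTNNCGC, an AP-1-like site as TGANTCA and a TATA box by the letters TATAAA. The software was Python 3.11.15 (pandas 2.3.3, numpy 2.4.6, matplotlib 3.10.9, scipy 1.17.1).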

Additional observations from a re-analysis of the deposited data

Results flagged for a closer look

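A total of 4 loci on the minus strand beside or within Cdk6, which lies on the plus strand of chromosome 5, were given to no gene and had a higher TPM in MR than in M. The first extended from 3289941 to 3341535, up to the Cdk6 start, with a TPM of 2.25 in MR and none assembled in M. The second, from 3490455 to 3491282, had 1.71 in MR, and a longer locus at this place had 0.672 in M. The third, from 3504747 to 3505422, had 0.754 in MR at a read depth of 1.00 and none in M. The last, 108 bases from 3523071, had the same ends in both libraries, with 13.6 in M and 17.6 in MR, and lies wholly on exon bases of Cdk6. These loci are outside the comparison of named genes, and their difference was not tested.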

How the results depend on the processing

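The 10 genes and 3 lists were recomputed with FPKM, median-of-ratios scaling, 0.1 as pseudocount, unfiltered genes, genes with a TPM of at least 10, TPM without mitochondrial and the 20 most abundant genes, the longest locus of a gene, coverage per aligned Gb, loci of their own only and a log2 limit of 2. Leaving out loci without a strand was added after the data were seen. No called gene changed sign. Cdk6 changed sign with the longest locus and without loci lacking a strand (0.43), and Cdkn2c with coverage (-0.08). Ccnd2 ranged from -2.37 to -1.28 and was not in the set with a TPM of at least 10. Counts past the limit moved by over 1.5 times with the limit of 2, by construction, to 1 of the 10 genes, 3 of the 41 pathway genes, 1 of the 20 E2F targets, 3 of the 20 p53 targets and 1480 of all genes. The count over all genes, 4645 as reported, was 2580 with a TPM of at least 10 and lay between 3409 (FPKM) and 5131 (0.1 as pseudocount) under the other settings. The p53 targets below -1 were 6, but 3 with coverage. The median of the pathway list, -0.16, ranged from -0.33 (median-of-ratios) to -0.10 (loci of their own only), and the other medians kept their sign. No paired analysis was possible because each condition has 1 library, and none could be left out. Depth limits Ccnd2 in MR most, at an estimated 38 read pairs, a number too high for its fragments.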
